A study of Mus musculus with 6 samples.

Results

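Nuclear noncoding and rRNA-associated transcripts were followed here through 6 islet libraries: the long noncoding RNAs Malat1, Neat1, Miat and Snhg11, and the entries Gm42418, Gm26917 and Lars2. These 7 genes, of 34745 in the deposited table, were chosen by name with earlier results of these data known. Gm42418, Gm26917 and Lars2 were chosen because their levels were high in the 2 libraries with little Ins1, so their height there is a description and was not tested. RNA was measured in islets isolated from C57BL/6 mice at 8 weeks of age, in 3 groups of 2 libraries each. The KO+DNMT3A group is βRapKO islets that received Dnmt3a, a DNA methyltransferase, by lentivirus. The KO group is βRapKO islets, in which Rptor, the gene of the mTORC1 subunit Raptor, is deleted in beta cells, and the WT group is wild-type islets. The deposited column names of the KO and WT libraries carry "GFP", which is not explained in the sources used here. All 6 libraries were made from poly-A RNA, and values are FPKM, fragments scaled to transcript length and library size, so levels of different genes are compared per length.

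Several of these RNAs are known for staying in the nucleus. Malat1 collects in nuclear speckles, the compartments that store splicing factors, and Neat1 is the scaffold of paraspeckles, bodies built around RNA-binding proteins of the Sfpq and Nono family. Malat1 and the long form of Neat1 end without a poly-A tail: RNase P cuts off a tRNA-like segment, and the end left behind folds into a triple helix. Miat is a nuclear RNA best known from neurons, and Snhg11 is a host gene of small nucleolar RNAs that is also known mainly from neural tissue. Ribosomal RNA makes up most of the RNA of a cell and has no poly-A tail, so poly-A selection removes most of it. Lars2 encodes the mitochondrial leucyl-tRNA synthetase, which charges leucine onto its tRNA for translation in mitochondria.

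A pair of libraries stood apart before any comparison. Ins1 reached 416 FPKM in KO replicate 2 and 647 FPKM in WT replicate 1, against 65360 to 119077 FPKM in the other 4 libraries. The 10 beta cell markers summed to 1684 and 1583 FPKM in this pair, where Mafa was listed at 0 in both and Slc2a2 at 0 in WT replicate 1, and to 124621 to 218236 FPKM in the other 4. WT replicate 1 was also the shallowest library: the steps between low values implied 244791 fragments on genes there and 780226 to 1919899 in the others. Its duct markers summed to 2402 FPKM and its stellate and fibroblast markers to 1031 FPKM, against 71.9 to 903 FPKM and 137 to 324 FPKM elsewhere. The duct sum of 903 FPKM was that of KO+DNMT3A replicate 1, and the remaining libraries had 71.9 to 142 FPKM. Krt19 and Clu were higher in KO+DNMT3A replicate 1, at 94.6 and 259 FPKM, than in WT replicate 1, at 64.8 and 167 FPKM. Mmp7, Spp1 and Sox9 were higher in WT replicate 1, with Spp1 at 1510 FPKM. Rptor, read as a check of the labels, was 0.714 and 1.93 FPKM in KO+DNMT3A, 0.378 and 1.51 in KO, against 0.800 and 1.06 in WT, so these levels did not show the deletion. They cannot decide whether it was present. Rptor was low in every library, its fragments were not estimated, and whole islets were measured while the deletion is in beta cells. Dnmt3a was 3.62 and 3.80 FPKM in KO+DNMT3A, 3.19 and 2.5 in KO, against 2.94 and 4.43 in WT, so the libraries are called by their labels. The labels leave it unsaid if both libraries of a group stem from different mice, so p-values reflect the spread between libraries alone, and this may be technical.

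Malat1 (ENSMUSG00000092341, chr19:5795690-5802672, minus strand, GRCm38/mm10, annotated lincRNA) was the most abundant of the nuclear RNAs in every library. It was 767 FPKM in KO+DNMT3A replicate 1 and 1698 FPKM in replicate 2. In KO it reached 473 FPKM in replicate 1 and 2845 FPKM in replicate 2, and in WT it was 2036 FPKM in replicate 1 and 920 FPKM in replicate 2. The lowest and the highest value of all 6 libraries, 6.02 times apart, both fell in the KO group, and the 3 groups overlapped. Malat1 ranked between 23 and 47 among all genes of a library. Neat1 (ENSMUSG00000092274, chr19:5824708-5845478, minus strand, lincRNA) lies 22035 bases from Malat1. It was 17.1 and 32.1 FPKM in KO+DNMT3A, 16.5 and 36.3 in KO, against 20.1 and 35.4 in WT. In all 3 groups replicate 2 was the higher library, by 1.88 times in KO+DNMT3A, 2.21 times in KO and 1.76 times in WT, and the groups overlapped. Malat1 was 26 times Neat1 in WT replicate 2 and 101 times in WT replicate 1, with the other 4 libraries at 28.7 to 78.3 times.

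The 3′ ends of both RNAs are shown because this cleaved, untailed end is what the RNAs are known to have in common. The stretch of Malat1 is chr19:5795982-5796071 and that of Neat1 is chr19:5824708-5824807, both minus strand and 5′ to 3′, with the blocks of 11 or more bases that they share in capitals.
Malat1: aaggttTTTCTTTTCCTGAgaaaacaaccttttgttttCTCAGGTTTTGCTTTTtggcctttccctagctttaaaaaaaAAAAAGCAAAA
Neat1: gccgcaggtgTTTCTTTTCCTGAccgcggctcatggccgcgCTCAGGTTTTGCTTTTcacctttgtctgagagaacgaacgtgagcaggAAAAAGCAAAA
As background, the U-rich runs of the first and second block and the A-rich run of the last are the strands of the triple helix. The block TTTCTTTTCCTGA was found in the last 400 bases of 6 of 122312 annotated transcripts (0.00491%, and 0.00572% for its reverse complement). The block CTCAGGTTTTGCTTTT was found in 2 (0.00164%, and 0 for its reverse complement), and AAAAAGCAAAA in 143 (0.117%, and 0.101% for its reverse complement). Malat1 and Neat1 were the 2 genes with all 3 blocks in that window. The longest run of A inside Malat1 is 12 bases and begins at base 6674 of its 6983-base transcript, and 4.07% of annotated transcripts hold a run as long.

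Beyond these ends lie the tRNA-like segments. That of Malat1 is chr19:5795925-5795981, and after Neat1 the annotation places the separate gene Gm27702 at chr19:5824652-5824707, both minus strand. Capitals mark bases that are identical in their alignment.
Malat1 tRNA-like segment: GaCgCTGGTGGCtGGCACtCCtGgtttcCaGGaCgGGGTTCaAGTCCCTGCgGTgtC
Gm27702: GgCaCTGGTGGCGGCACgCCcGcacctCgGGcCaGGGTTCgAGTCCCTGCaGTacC
Of 56 aligned bases 40 were identical, which is 71.4%. The annotated Malat1 gene thus runs on past its mature end, while that of Neat1 stops at it. RNase P itself holds a catalytic RNA, Rpph1, whose level was looked up after the values of other genes had been seen. Rpph1 was 19.6 and 33.7 FPKM in KO+DNMT3A, 13.2 and 100 in KO, against 76.8 and 32.2 in WT. Its highest 2 values lay in KO replicate 2 and WT replicate 1, as did those of Malat1 and of 6.45% of the 13233 genes that passed the filter. Its transcript has only 319 bases, and the fragments behind these values were not estimated. A link between Rpph1 and Malat1 was not tested.

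**Figure D1:**
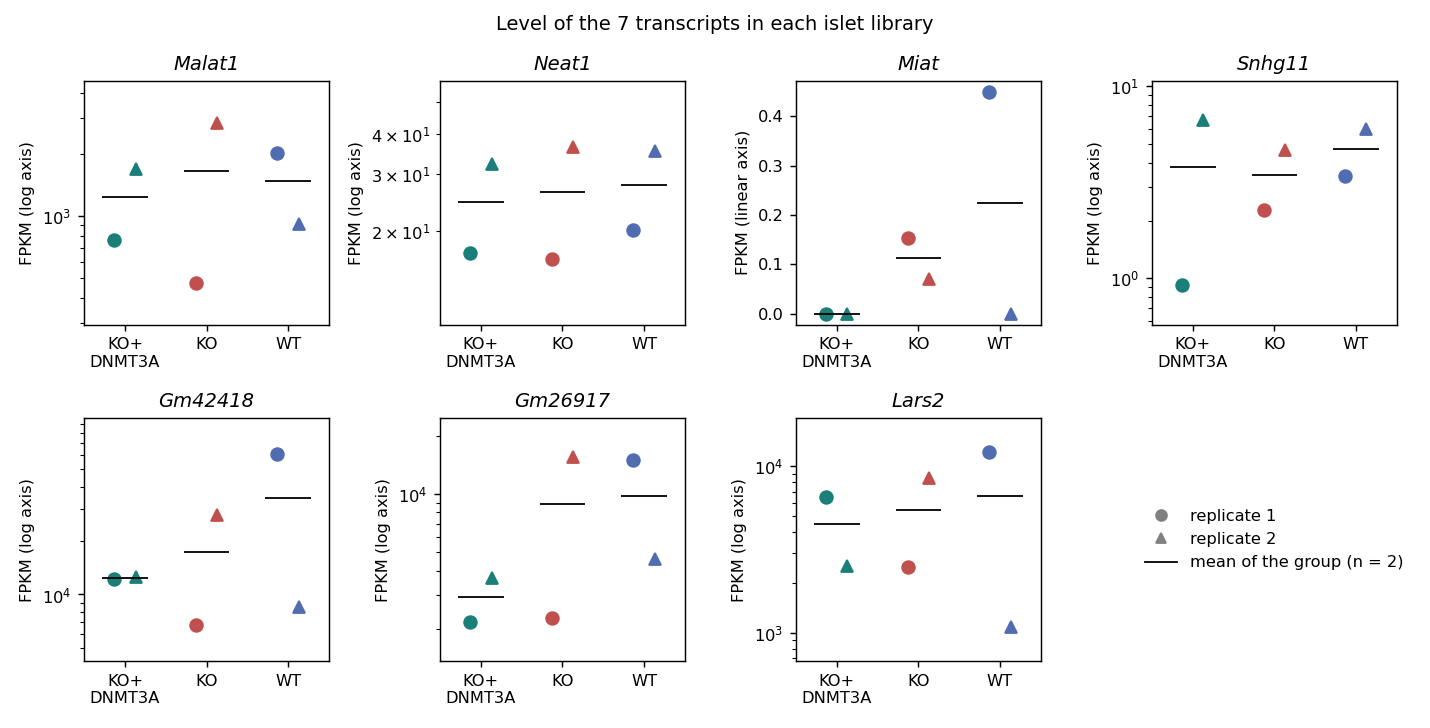
FPKM of each of the 7 transcripts (y axis, logarithmic except for Miat) in the KO+DNMT3A, KO and WT libraries. Circles are replicate 1, triangles replicate 2 and bars the arithmetic mean of 2 libraries; Neat1 and Snhg11 were higher in replicate 2 of every group, while Malat1, Gm42418, Gm26917 and Lars2 peaked in KO replicate 2 and WT replicate 1.

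Miat (ENSMUSG00000097767, chr5:112213228-112229395, minus strand, lincRNA) was barely detected in these islets. It was listed at 0 in both KO+DNMT3A libraries, at 0.154 and 0.0704 FPKM in KO, and at 0.449 FPKM in WT replicate 1 and 0 in WT replicate 2. If its longest transcript of 9163 bases is assumed, these values amount to 2.01 and 0.503 fragments in KO and 1.007 fragments in WT replicate 1, so no difference was detectable at this depth. Miat did not pass the filter on low values and entered no test. Snhg11 (ENSMUSG00000044349, chr2:158375638-158386145, plus strand) is typed protein-coding in GENCODE and as a long noncoding RNA in RefSeq, and it contains 2 annotated small nucleolar RNA genes. It was 0.919 and 6.65 FPKM in KO+DNMT3A, 2.28 and 4.64 in KO, against 3.42 and 6.01 in WT. Assuming its longest transcript, these rest on 10.3 and 43.6 fragments in KO+DNMT3A, 19.1 and 21.2 in KO, and 4.90 and 34.3 in WT. Replicate 2 was again the higher library of every group, by 7.23 times in KO+DNMT3A, 2.04 times in KO and 1.76 times in WT.

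Gm42418 (ENSMUSG00000098178, chr17:39846958-39848788, plus strand, lincRNA, 1 exon) had the highest level of the 7 in every library. It was 12172 and 12446 FPKM in KO+DNMT3A, 6762 and 27794 in KO, against 60780 and 8526 in WT. In WT replicate 1 it was the most abundant of all genes, and in the other 5 libraries it ranked between 8 and 14. The KO+DNMT3A libraries were 1.02 times apart, while the KO libraries were 4.11 times apart. Gm26917 (ENSMUSG00000097971, chr17:39843013-39846341, plus strand, lincRNA) ends 616 bases before Gm42418 begins. It was 2163 and 3670 FPKM in KO+DNMT3A, 2263 and 15498 in KO, against 14971 and 4594 in WT. Both KO+DNMT3A values lay below both WT values, and KO overlapped with each of the other groups. Gm26917 was not a fixed part of Gm42418: the ratio of their levels was 0.178 and 0.295 in KO+DNMT3A, 0.335 and 0.558 in KO, and 0.246 and 0.539 in WT.

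Gm42418 overlaps an annotated ribosomal RNA gene on the opposite strand, CT010467.1 (chr17:39846353-39848827). The strands are those of the annotation. Which of them reads as mature ribosomal RNA was not tested, so Gm42418 is not shown to be antisense to it. Its bases 1 to 1244, of 1831, are the same locus, read from the other strand, as the rRNA transcript of that gene, so their identity in reverse complement follows from the overlap, and RefSeq lists Gm42418 as a synonym of the pseudogene Rn18s-rs5. The first 60 bases of Gm42418 (chr17:39846958-39847017, plus strand) are shown because they open that stretch; capitals mark the overlap with CT010467.1, which covers them all. The most GC-rich 60 bases of Gm26917 (chr17:39845678-39845737, plus strand) are shown beside them, with G and C in capitals.
Gm42418: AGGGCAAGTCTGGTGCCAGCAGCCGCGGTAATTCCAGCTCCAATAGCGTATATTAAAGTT
Gm26917: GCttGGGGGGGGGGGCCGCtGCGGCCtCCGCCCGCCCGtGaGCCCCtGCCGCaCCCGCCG
In the Gm26917 window 52 of 60 bases are G or C, and over the whole transcript the share is 69.1%, higher than in 99.8% of annotated transcripts. Gm26917 shared no stretch of 30 bases with any other annotated gene; no full rRNA precursor was compared here, so whether it matches the precursor was not tested. AY036118, which overlaps Gm42418 on the opposite strand, was listed at 0 in all libraries. How fragments that fit both strands or several rRNA copies were assigned is not given in the sources used here, so these levels are uncertain.

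Lars2 (ENSMUSG00000035202, chr9:123366927-123462666, plus strand, protein-coding, 21 exons) was 6519 and 2502 FPKM in KO+DNMT3A, 2467 and 8441 in KO, against 12195 and 1075 in WT. The highest and the lowest of the 6 values, 11.3 times apart, were the WT libraries, and all groups overlapped. Its cytosolic counterpart Lars was 33.6 and 21.1 FPKM in KO+DNMT3A, 23.1 and 8.97 in KO, against 12.7 and 28.2 in WT. Lars2 was thus 194 and 118 times Lars in KO+DNMT3A, 107 and 941 times in KO, and 959 and 38.1 times in WT. Of 18 other synthetases of mitochondrial translation 15 passed the filter. The most abundant were Gars and Kars, which serve the cytosol as well, and Cars2 and Rars2. Gars, the glycyl-tRNA synthetase, was 47.0 and 27.2 FPKM in KO+DNMT3A, 42.6 and 18.6 in KO, against 22.4 and 48.3 in WT. It lay far below Lars2 in each library and was lowest in KO replicate 2 and WT replicate 1. Cars2, the cysteinyl-tRNA synthetase of mitochondria, was 8.74 and 15.03 FPKM in KO+DNMT3A, 8.74 and 23.6 in KO, against 17.7 and 16.1 in WT, and was highest in that pair of libraries. The highest 2 values lay in the pair for 2 of the 15 genes.

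Lars2 shares a stretch near its 3′ end with 2 other entries. Its longest match is 52 bases with Gm15564 (chr16:35966752-35983230, annotated antisense) and 41 bases with AA474408 (chr7:110057987-110061325, typed TEC). A run of 36 bases common to all 3 lies at bases 3278 to 3313 of the main Lars2 transcript, in exon 21 and after the last coding base, 2905. Of this run 30 bases are printed, since they are what the 3 entries have in common; all letters are identical and therefore in capitals.
Lars2, chr9:123462049-123462078, plus strand: AATTCACCAAGCGTTGGATTGTTCACCCAC
Gm15564, chr16:35981766-35981795, minus strand: AATTCACCAAGCGTTGGATTGTTCACCCAC
AA474408, chr7:110059708-110059737, minus strand: AATTCACCAAGCGTTGGATTGTTCACCCAC
As background, this stretch resembles large-subunit ribosomal RNA; no copy of that rRNA was compared here. AA474408, found by this match and not named by a rule, was 52.9 and 26.8 FPKM in KO+DNMT3A, 35.7 and 85.6 in KO, against 95.4 and 7.07 in WT. The 6 libraries took the same order by AA474408 as by Lars2, apart from KO replicate 1 and KO+DNMT3A replicate 2, whose Lars2 levels were 2467 and 2502 FPKM. Gm15564 was listed at 810 FPKM in KO+DNMT3A replicate 2, at 852 FPKM in KO replicate 1 and at 0 elsewhere, that is, in the 3 libraries with the most Lars2 and in WT replicate 2, which had the least. Whether fragments of the shared stretch were counted under Lars2 was not tested.

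**Figure D2:**
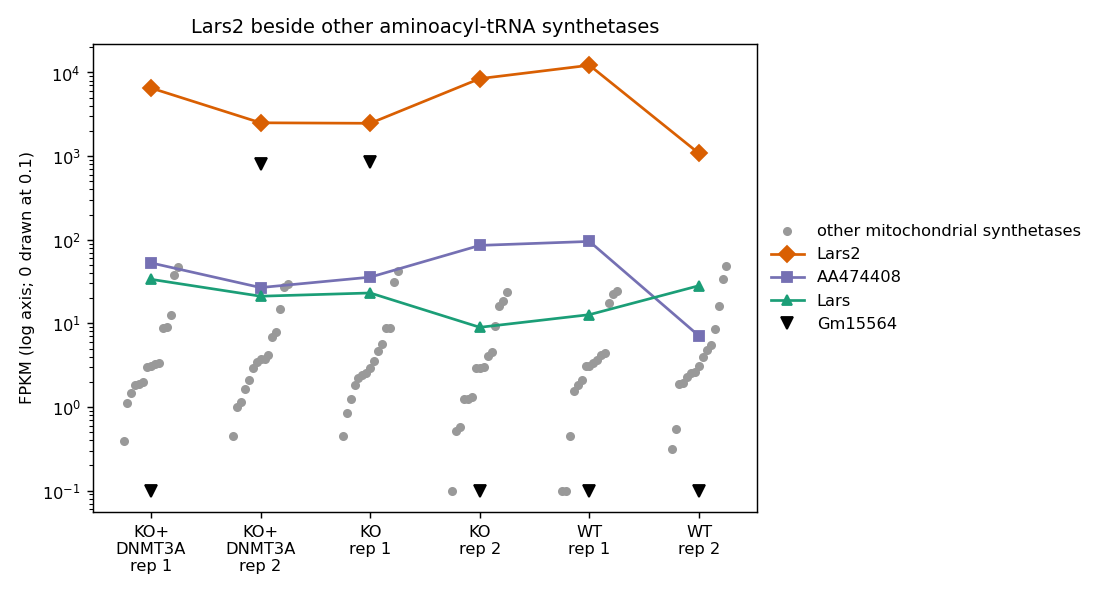
FPKM (logarithmic y axis, with 0 drawn at 0.1) of Lars2, of AA474408 and Gm15564, which share sequence with it, of the cytosolic Lars, and of the 15 other mitochondrial synthetases that passed the filter (grey), in each library. Lars2 stood 38.1 to 959 times above Lars, and both Lars2 and AA474408 were highest in WT replicate 1 and KO replicate 2 and lowest in WT replicate 2.

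Together Gm42418, Gm26917 and Lars2 held 4.06% and 3.40% of the summed FPKM in KO+DNMT3A, 2.15% and 8.10% in KO, and 15.3% and 2.57% in WT. This split chose them and is not tested. Malat1, Neat1, Miat and Snhg11 together held 0.153% and 0.318% in KO+DNMT3A, 0.0921% and 0.452% in KO, and 0.358% and 0.174% in WT. Mitochondrially encoded genes had their highest 2 shares, like both sums, in KO replicate 2 and WT replicate 1, while in the other 4 libraries the order differed: they took 26.3% and 26.1% in KO+DNMT3A, 16.5% and 50.9% in KO, and 44.8% and 26.5% in WT. Ins1 and Ins2 took 16.5% and 23.6% in KO+DNMT3A, 30.5% and 0.109% in KO, and 0.170% and 23.9% in WT. Shares of one sum move each other, so the rRNA-associated entries were also set against nuclear protein-coding genes and long noncoding RNAs alone. Their sum was then 6.57% and 5.52% in KO+DNMT3A, 2.85% and 29.4% in KO, and 41.8% and 4.22% in WT. Set against all genes but the mitochondrially encoded ones, Ins1, Ins2 and Iapp, it was 8.19% and 7.38% in KO+DNMT3A, 5.03% and 16.6% in KO, and 27.9% and 5.91% in WT. In bulk islets, fewer cells of a type and less RNA per cell cannot be told apart.

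**Figure D3:**
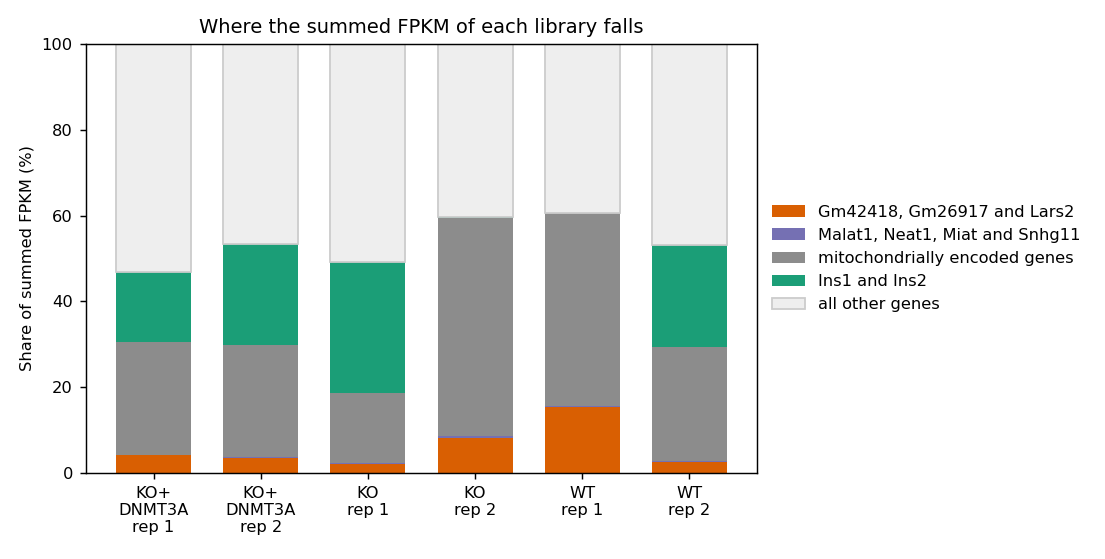
Share of the summed FPKM (y axis, %) in each library held by Gm42418, Gm26917 and Lars2, by Malat1, Neat1, Miat and Snhg11, by mitochondrially encoded genes, by Ins1 and Ins2, and by all other genes, stacked to 100%. In KO replicate 2 and WT replicate 1 the insulin band is too thin to see, and the orange and dark grey bands are taller than in the other 4 libraries.

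Malat1 had its highest 2 values in KO replicate 2 and WT replicate 1, as did 6.45% of the 13233 genes that passed the filter. Gm42418, Gm26917 and Lars2 had this pattern by the rule that chose them, so they are not set against that share. All 13 mitochondrially encoded genes had the pattern too. Among genes of nuclear speckle and splicing regulator proteins this held for 5 of 23, among paraspeckle proteins for 2 of 15, among other long noncoding RNAs for 1 of 14, and among genes of endocrine granules for 0 of 17. The part of the beta cell, duct and stroma levels, of depth and of the mitochondrial share in this pattern was not tested. Neat1 and Snhg11 did not have it: each was higher in replicate 2 of all 3 groups, which held for 14.6% of the genes, and for 12.2% replicate 2 was lower in all 3. Replicate 2 was also higher in all 3 groups for 4 of 17 genes of endocrine granules and 3 of 15 other mitochondrial synthetases. The same order was found in 4 of 14 other long noncoding RNAs, in 4 of 13 host genes of small nucleolar RNAs, in 3 of 15 paraspeckle protein genes and in 3 of 23 speckle genes. Meg3, an imprinted long noncoding RNA, was one of them, at 39.2 and 103 FPKM in KO+DNMT3A, 47.3 and 56.7 in KO, against 25.7 and 71.9 in WT.

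The genes whose levels were most like each member's were found by Pearson correlation of log2(FPKM + 1) over the 6 libraries, among 5136 genes with a mean of at least 5 FPKM. These correlations describe 6 points that share library, depth and insulin content. For Malat1 they were Rbm25 (r = 0.997), which encodes a splicing regulator, Srek1ip1 (0.995), which encodes a partner of a splicing factor, and Zc3h13 (0.993), a subunit gene of the RNA methylation complex. Rbm25 was 19.7 and 33.1 FPKM in KO+DNMT3A, 12.6 and 55.0 in KO, against 42.9 and 22.0 in WT, the same order of libraries as Malat1. For Neat1 they were Nop53 (r = 0.993), which encodes a nucleolar protein of ribosome assembly, Pias4 (0.980), a SUMO ligase gene, and Tcf25 (0.976). Nop53 was 29.3 and 44.2 FPKM in KO+DNMT3A, 29.2 and 47.6 in KO, against 32.4 and 43.8 in WT. For Snhg11 they were Cited2 (r = 0.993), a transcriptional coregulator gene, Grk2 (0.983), a receptor kinase gene, and Bod1 (0.982). For Gm42418 they were Brd7 (0.989), Tcirg1 (0.987) and the collagen gene Col5a1 (0.986), for Gm26917 Ptprs (0.995), Mrpl12 (0.990) and the pseudogene Gm13341 (0.983), and for Lars2 Sfxn3 (0.987), Rab32 (0.981) and Timp2 (0.964). Gm42418, Gm26917 and Lars2 were chosen for being high in KO replicate 2 and WT replicate 1, so likeness among them is partly built in. Among these members r was 0.865 for Gm42418 and Gm26917, 0.831 for Gm42418 and Lars2, and 0.565 for Gm26917 and Lars2. Malat1 had an r of 0.864 with Gm26917, 0.791 with Gm42418 and 0.532 with Lars2. For Neat1 and Snhg11 it was 0.859. Neat1 and Malat1 had an r of 0.605, and Neat1 and Lars2 one of -0.31.

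**Figure D4:**
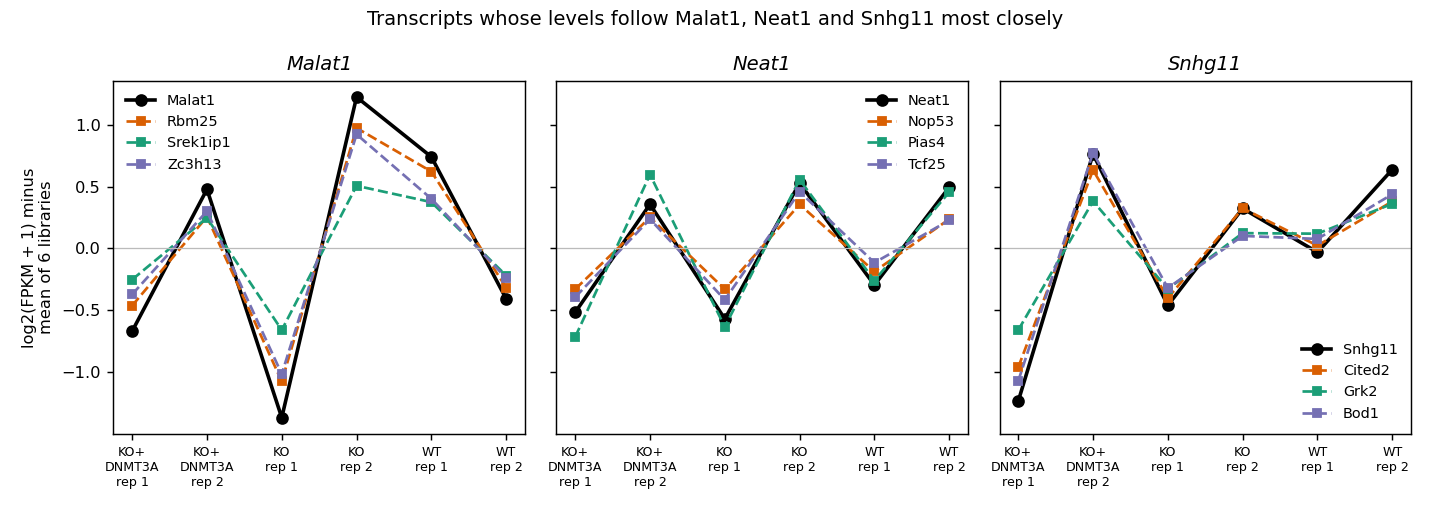
Level of Malat1, Neat1 and Snhg11 (black) and of the 3 genes most like each (dashed) in every library, as log2(FPKM + 1) minus the mean of the 6 libraries. Malat1 and the 3 genes most like it peaked in KO replicate 2 and WT replicate 1, while Neat1 and Snhg11 zigzagged between replicate 1 and replicate 2 of each group.

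KO+DNMT3A was compared with KO to ask what added Dnmt3a does in βRapKO islets. None of the 6 members tested passed, and their groups overlapped. Gm42418, Gm26917 and Lars2 were chosen in part for high values in KO replicate 2. Their fold changes and p-values here draw on the values that chose them, and a lower KO+DNMT3A group is favoured by that choice. Malat1 averaged 1233 ± 658 FPKM in KO+DNMT3A against 1659 ± 1677 FPKM in KO, Neat1 24.6 ± 10.6 against 26.4 ± 14.0 FPKM, and Snhg11 3.78 ± 4.05 against 3.46 ± 1.67 FPKM (SD, n = 2). Gm42418 averaged 12309 ± 194 FPKM in KO+DNMT3A against 17278 ± 14872 FPKM in KO, Gm26917 2916 ± 1066 against 8881 ± 9359 FPKM, and Lars2 4510 ± 2840 against 5454 ± 4224 FPKM. The log2 fold changes of limma on log2(FPKM + 1) ran from -1.07 for Gm26917, with a standard error of 1.09, to -0.02 for Malat1, with a standard error of 0.998 (limma adjusted p = 1 for each of the 6). For Snhg11 it was -0.17, although its FPKM mean was higher in KO+DNMT3A, since the fit compares means of log2 values. The median over all genes was 0.19, and -0.01 after quantile normalization. The same test called 0 of 13233 genes, a background of 0%, and 1.11% had an unadjusted p under 0.05, among them no member. Groups did not overlap and KO+DNMT3A was higher for 17.2% of genes, and lower for 5.43%. Without KO replicate 2 each of the 6 members had a higher mean in KO+DNMT3A, with log2 fold changes of 0.22 for Snhg11 to 1.27 for Malat1.

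The comparison of KO with WT addresses the effect of deleting Rptor in beta cells on islet RNA. For each of the 6 members the 2 libraries of a group were farther apart, on the log2 scale, than the group means. Gm42418, Gm26917 and Lars2 were chosen for high values in KO replicate 2 and WT replicate 1, a library of each group. Their fold changes and p-values here thus draw on the values that chose them. WT averaged 1478 ± 789 FPKM for Malat1, 27.8 ± 10.9 FPKM for Neat1, 4.71 ± 1.83 FPKM for Snhg11, 34653 ± 36950 FPKM for Gm42418, 9783 ± 7338 FPKM for Gm26917 and 6635 ± 7863 FPKM for Lars2 (SD, n = 2). Log2 fold changes were -0.24 for Malat1, -0.12 for Neat1, -0.37 for Snhg11, -0.73 for Gm42418, -0.49 for Gm26917 and 0.33 for Lars2, with standard errors of 0.66 to 1.26 and a limma adjusted p of 1 for each. These compare means of log2 values, so their sign can differ from that of the FPKM means: the FPKM mean in KO was higher for Malat1 and lower for Lars2. The test called 0% of genes, and 1.81% had an unadjusted p under 0.05, none of them a member. Groups did not overlap for 9.36% of genes with KO higher and for 10.5% with KO lower, and the groups of all 6 members overlapped. Leaving out 1 library turned directions: for Gm42418 the log2 fold change was 0.29 without KO replicate 1 and 0.69 without WT replicate 1, but -1.75 without KO replicate 2.

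KO+DNMT3A was compared with WT to ask how far islets with added Dnmt3a stand from wild type. Gm26917 was the member farthest from no change, with a log2 fold change of -1.56 and a standard error of 1.09, and both its KO+DNMT3A libraries lay below both WT libraries. Gm42418, Gm26917 and Lars2 were chosen for being high in KO replicate 2 and WT replicate 1. Their comparisons thus draw on the values that chose them, and a lower KO+DNMT3A group is favoured by that choice. Gm26917 did not pass (limma unadjusted p = 0.194, adjusted p = 0.997), and 7.87% of all genes had groups that did not overlap with KO+DNMT3A lower. Without WT replicate 1, the higher WT library, its log2 fold change was -0.71. The others were -0.26 for Malat1, -0.18 for Neat1, -0.54 for Snhg11, -0.89 for Gm42418 and 0.16 for Lars2, with limma adjusted p from 0.997 to 0.999 and overlapping groups. The FPKM mean of Lars2 was lower in KO+DNMT3A, against the sign of its log2 fold change. The median over all genes was 0.23, and -0.03 after quantile normalization. The test called 0% of genes, and 2.86% had an unadjusted p under 0.05, none of them a member. Groups did not overlap with KO+DNMT3A higher for 19.2% of genes. The 3 comparisons share libraries, so their values are not independent of each other.

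The proteins and RNAs around these members were read from 6 lists, whose medians are given as values without a direction: leaving out 1 library turned the sign of 12 of the 18. Paraspeckle protein genes, all 15 of which passed the filter, had a median log2 fold change of 0.04 in KO+DNMT3A against KO, 0.16 in KO against WT and 0.13 in KO+DNMT3A against WT, with 0 called in each. Sfpq, an essential paraspeckle protein gene, was 12.5 and 18.8 FPKM in KO+DNMT3A, 11.3 and 15.3 in KO, against 14.4 and 9.16 in WT. Smarca4, Ewsr1 and Dazap1 were the most abundant of the list, and Dazap1 was 11.9 and 20.8 FPKM in KO+DNMT3A, 8.32 and 26.3 in KO, against 9.32 and 14.3 in WT. The 23 speckle and splicing genes had medians of 0.15, -0.15 and 0.01 in the same 3 comparisons, with 0 called. Luc7l3, a splicing factor gene, was 17.98 and 40.1 FPKM in KO+DNMT3A, 11.2 and 66.6 in KO, against 52.8 and 27.6 in WT, the order of libraries that Malat1 had. Prpf4b, a splicing kinase gene, was 38.4 and 53.5 FPKM in KO+DNMT3A, 27.6 and 69.2 in KO, against 96.1 and 42.8 in WT. Srsf7, a splicing factor gene, was lowest where Malat1 was highest, at 75.4 and 67.5 FPKM in KO+DNMT3A, 68.3 and 39.4 in KO, against 39.4 and 65.3 in WT.

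Of 24 other long noncoding RNAs 14 passed the filter, with medians of 0.38 in KO+DNMT3A against KO, 0.18 in KO against WT and 0.62 in KO+DNMT3A against WT, and 0 called. The first was -0.08 without KO+DNMT3A replicate 2 and 0.68 without KO+DNMT3A replicate 1, the second -0.30 without WT replicate 1 and 0.43 without WT replicate 2, and the third 0.17 without KO+DNMT3A replicate 2 and 1.15 without WT replicate 2. Over all genes the medians were 0.19, 0.03 and 0.23. Meg3 was the most abundant of them at a mean of 57.4 FPKM, followed by Epb41l4aos at 18.4 FPKM, 2900097C17Rik at 12.2 FPKM and the imprinted Airn at 8.27 FPKM, so Malat1 stood above each of them in each library. Of 18 host genes of small nucleolar RNAs 13 passed, with medians of 0.00 in KO+DNMT3A against KO, -0.51 in KO against WT and -0.40 in KO+DNMT3A against WT, and 0 called. Snhg9 was 59.8 and 58.7 FPKM in KO+DNMT3A, 53.6 and 77.0 in KO, against 134 and 67.3 in WT. Snhg20 was 10.9 and 36.3 FPKM in KO+DNMT3A, 17.9 and 22.4 in KO, against 16.6 and 34.3 in WT, higher in replicate 2 of each group as Snhg11 was. The 15 other mitochondrial synthetases had medians of 0.33, -0.04 and 0.12, with 0 called. The 17 endocrine granule genes, read because Snhg11 is known mainly from neural tissue, had medians of 0.64, 0.90 and 1.55, with 0 called. Without KO replicate 2 the first was -0.33 and without KO replicate 1 it was 1.31, without WT replicate 1 the second was -0.50 and the third 0.06, and without WT replicate 2 they were 2.23 and 3.02. Chga, the granule protein gene chromogranin A, was 2953 and 2501 FPKM in KO+DNMT3A, 3094 and 279 in KO, against 239 and 3590 in WT. The insulin-poor libraries were its 2 lowest, which was not so for Snhg11, whose lowest value was that of KO+DNMT3A replicate 1.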

How the data were processed

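Poly-A RNA of islets was measured in 6 libraries, 2 each of KO+DNMT3A, KO and WT, grouped by GEO's titles. The authors deposited 1 table of FPKM values, per the file headers. The submitters' processing notes name the tools HISAT2 2.0.4, StringTie 1.3.0 and edgeR and the build mm10, without their roles. Whether counting used strand, and the depth, are not given in the sources used here. Depth was inferred from 14349 genes with 1 transcript, of whose low values (20 fragments or fewer) 84.7% to 91.8% lay within 0.01 of a whole multiple; fragments of genes with several transcripts are approximate. Of 34745 genes, 15901 were 0 in all libraries and 13233 had at least 1 FPKM in at least 2; 6 of the 7 members did.

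Values as log2(FPKM + 1) entered 1 limma 3.58.1 fit (R 4.3.3) of all libraries, trended and robust, with two-sided tests and Benjamini-Hochberg adjustment at 0.05 over all kept genes. Fold changes are on that scale and understate those of low genes. Tested on simulated data for KO against WT, over 13233 genes, the fit recovered 0 of 50 genes changed 16-fold at the spread of these libraries, and 48, 50, 50 and 50 of 50 changed 2-, 4-, 8- and 16-fold at 0.1 of it, with 5 false calls among the unchanged genes.

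The members and lists were chosen with earlier results of these data known. Named were the members, the 3 genes most like each, up to 4 of each list by mean level, Lars, Ins1, Ins2, Gcg, Rptor, Dnmt3a and overlapping genes. Mafa, Slc2a2, AA474408, Gm27702 and Rpph1 were added from the sequences or after values were seen. Sequences were read from the GENCODE M21 transcripts, positions from its annotation of GRCm38, and synonyms from RefSeq. Biopython 1.88 aligned the tRNA-like segments. Tables and figures used Python 3.11.15, numpy 2.4.6, pandas 2.3.3 and matplotlib 3.10.9. Alternatives were another pseudocount, other filters, quantile normalization, rescaling, a fit of the compared groups alone, replicate blocks and left-out libraries; the block by deposited column number was chosen after seeing the data.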

Additional observations from a re-analysis of the deposited data

How the results depend on the processing

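With 2 libraries a group and members that spread up to 11.3 times, no member's direction is firm. The count of genes called was 0 in each comparison under all alternatives, where the unadjusted p was under 0.05 for 36 to 433 genes in KO+DNMT3A against KO, 58 to 1713 in KO against WT and 95 to 2263 in KO+DNMT3A against WT. The highest of these counts came without KO replicate 1 in the first comparison and without WT replicate 2 in the others. No member passed under any alternative, and 38 of 270 recomputed fold changes turned sign. Of these, 1 came with rescaling and the rest with libraries left out. Other filters, the replicate blocks and the fit of the compared groups alone cannot alter a member's fold change here. The same holds for leaving out a library of the third group, so 38 of 270 understates how unsteady the directions are. Why single libraries weigh so much was not tested. Of 675 recomputed list medians 289 equalled the reported value and 75 took the other sign, among them endocrine granule genes in KO+DNMT3A against KO (-0.33 without KO replicate 2). Of 36 shares with another denominator, 24 moved beyond the spread between replicates. With FPKM rescaled without the dominant genes, Malat1 in KO+DNMT3A against KO was 0.000598. Without both WT replicate 1 and KO replicate 2, KO+DNMT3A against KO was 1.27 for Malat1, 0.49 for Neat1, 0.22 for Snhg11, 0.86 for Gm42418, 0.32 for Gm26917 and 0.71 for Lars2 (log2), KO+DNMT3A against WT was 0.31 for Malat1 and 0.53 for Gm42418, and Snhg11 in KO against WT was -1.10; this leaves 1 KO and 1 WT library, assumed to vary like the KO+DNMT3A pair.

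Leaving out 1 library at a time gave, for KO+DNMT3A against KO, -1.32 to 1.27 for Malat1, -0.61 to 0.49 for Neat1, -1.16 to 0.83 for Snhg11, -1.18 to 0.86 for Gm42418, -2.46 to 0.32 for Gm26917 and -1.06 to 0.71 for Lars2. For KO against WT it gave -1.53 to 1.06 for Malat1, -0.67 to 0.43 for Neat1, -0.76 to 0.0201 for Snhg11, -2.15 to 0.69 for Gm42418, -1.87 to 0.90 for Gm26917 and -1.42 to 2.08 for Lars2. For KO+DNMT3A against WT it gave -0.83 to 0.31 for Malat1, -0.61 to 0.26 for Neat1 and -1.54 to 0.46 for Snhg11. Gm42418 ran from -2.30 to 0.53 and Lars2 from -1.59 to 1.91. Gm26917 kept its sign, at -2.41 to -0.71, a direction favoured by the rule that chose it.

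The replicate numbers were not shown to pair libraries: deviations from the group means correlated at 0.32 between KO+DNMT3A and KO, 0.10 between KO+DNMT3A and WT and -0.27 between KO and WT. With a replicate block 0 genes were called in each comparison, and 154, 285 and 391 had an unadjusted p under 0.05 in KO+DNMT3A against KO, KO against WT and KO+DNMT3A against WT. The numbers that end the deposited column names differ from those of the titles: KO+DNMT3A replicate 2, KO replicate 2 and WT replicate 1 share the number 3, whose meaning is not stated. Deviations of these libraries correlated at 0.32 between KO+DNMT3A and KO, -0.10 between KO+DNMT3A and WT and 0.27 between KO and WT. A replicate block of these 3 libraries against the other 3, added after seeing the data, called 0 genes in each comparison. In the same order, 203, 357 and 717 genes were under an unadjusted limma p of 0.05. The block left the fold changes as they were, which is fixed in advance for a block balanced over the groups.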
